A study of Mus musculus with 6 samples.

Results

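The cholesterol and fatty acid synthesis module of mouse LSK cells, the lin-, Sca1+, cKit+ fraction of the bone marrow that holds stem and progenitor cells, was examined after loss of Ash2l, a core subunit of the KMT2 complexes that methylate histone H3 at lysine 4. The module was set as 33 genes: the enzymes of cholesterol synthesis, the sterol-sensing proteins that control them, the enzymes of fatty acid synthesis, and the LXR receptors with the cholesterol exporters. A gene counted as measured where a probe set of the MTA-1.0 array was annotated to that gene alone, and this held for 29 of the 33, among 30738 genes so named. The expression of Tm7sf2, Srebf1, Scd2 and Nr1h2 is not analysed here. No value of the KO and control comparison entered the choice of the genes, although earlier results of these data were known when they were chosen.

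The KO samples came from adult mice with Ash2l exon4 fl/fl and MxCre, and the control samples from adult mice with Ash2l exon4 fl/fl and no Cre, with 3 arrays per genotype. Both genotypes received 3 injections of an interferon-inducing nucleic acid, named poly(dIdC) in the labels and pIC in the methods, and marrow was taken on day 10. The Mx1 promoter that drives Cre responds to interferon and is not restricted to blood cells, so the gene was not deleted in LSK cells alone. The sources do not settle whether RNA of several animals was combined for an array, and the p-values measure the spread between these samples. Each array received 40 ng of RNA, and the values are log2 signals, so that a difference of 1 is a 2-fold change.

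Cholesterol is built from acetyl-CoA through mevalonate, isoprenoid units, squalene and a long run of sterol intermediates, most of them made in the endoplasmic reticulum. When sterols run low, SCAP carries the membrane-bound factor SREBP2 to the Golgi, where proteases free its active part, and INSIG proteins hold the SCAP-SREBP pair back when sterols are plentiful. The related SREBP1 drives mainly the fatty acid enzymes, while the LXR receptors sense oxysterols and turn on the exporters ABCA1 and ABCG1. Dividing cells draw on both branches for new membrane.

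The promoters are shown because the sterol genes are known to share binding sequences for SREBP and for the CCAAT-binding factor NF-Y. RefSeq promoter windows (GRCm38.p6, 250 bases before to 50 after the start) were at hand for 26 of the 33 genes. The arrays measured 23 of the 26, without Tm7sf2, Srebf1 and Nr1h2. The letters CCAAT, searched on both strands, lay in a window of 20 of these 26 genes, against 41.1% of 27025 genes. They lay in all 14 sterol enzymes with a window, in 4 of 5 genes of SREBP control, in 2 of 4 fatty acid genes and in 0 of 3 genes of the LXR and efflux group. The E-box CACGTG lay in 6 of the 26 genes, against 8.09% of all genes. A sterol response element spelt TCACNCCAC lay in 1 of the 26, against 1.44%. Genes with several windows counted as holding a motif if any window held it, and a match is only a match of letters. Stretches upstream of the start follow for Hmgcs1, which held the TCACNCCAC match, and for genes on which the results turn. They read 5′ to 3′ along the gene, with matches of the 3 motifs on either strand in capitals (ATTGG is CCAAT on the other strand). Further CCAAT matches upstream of the start, at -237 and -176 in Hmgcs1 and at -12 in Hsd17b7, lie outside the stretches shown. In Fasn a pair of CCAAT matches on opposite strands overlap.
Mvd (chr8:122443425-122443502, minus strand): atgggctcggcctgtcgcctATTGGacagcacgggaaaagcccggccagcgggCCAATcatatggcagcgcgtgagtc
Hmgcs1 (chr13:119690194-119690330, plus strand): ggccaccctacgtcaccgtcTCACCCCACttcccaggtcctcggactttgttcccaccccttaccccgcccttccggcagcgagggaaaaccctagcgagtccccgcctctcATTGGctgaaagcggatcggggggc
Hsd17b7 (chr1:169969254-169969390, minus strand): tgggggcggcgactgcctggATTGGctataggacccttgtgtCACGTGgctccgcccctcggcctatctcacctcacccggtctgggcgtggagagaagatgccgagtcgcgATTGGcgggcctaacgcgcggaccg
Srebf2 (chr15:82147114-82147158, plus strand): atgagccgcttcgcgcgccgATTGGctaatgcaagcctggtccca
Insig1 (chr5:28071176-28071336, plus strand): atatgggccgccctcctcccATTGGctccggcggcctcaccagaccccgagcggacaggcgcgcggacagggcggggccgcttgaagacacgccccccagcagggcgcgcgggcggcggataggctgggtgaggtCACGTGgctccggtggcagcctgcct
Fasn (chr11:120824582-120824657, minus strand): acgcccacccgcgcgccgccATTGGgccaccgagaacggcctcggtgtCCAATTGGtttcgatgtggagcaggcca
Elovl6 (chr3:129532286-129532385, plus strand; no match in its window): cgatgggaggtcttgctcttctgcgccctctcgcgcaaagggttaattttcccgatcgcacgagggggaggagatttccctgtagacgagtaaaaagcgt

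The label check came first. Ash2l itself had log2 signals of 9.65, 9.63 and 9.65 in KO arrays, against 10.76, 10.57 and 10.23 in control arrays, so that the groups did not overlap (log2 fold change -0.88 ± 0.15 SE, adjusted p = 0.198). The LSK marker Kit lay between 12.28 and 12.40 in KO arrays and between 11.93 and 12.92 in control arrays. Of 11 progenitor markers measured, Flt3 was lower in KO (-1.22 ± 0.26 SE, adjusted p = 0.244, no overlap) and Cd34 higher (0.84 ± 0.35 SE, adjusted p = 0.458) at an unadjusted p under 0.05. Control 3 stood apart from the other controls. It correlated with them at 0.984 and 0.980 over all probe sets, and with the KO arrays at 0.986, 0.989 and 0.988. Results that rest on it are therefore given with and without it. In bulk RNA of sorted cells, fewer cells of a type and less RNA per cell cannot be told apart.

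Across the module, the sterol enzymes lay on both sides of 0 in KO against control LSK cells, and 4 genes outside the enzymes of that branch were lower at an unadjusted p under 0.05. The median log2 fold change was -0.04 over the 29 genes and -0.03 over all named genes. It was 0.03 over the 16 sterol enzymes, -0.26 over the 5 genes of SREBP control, -0.51 over the 5 fatty acid genes and -0.02 over the 3 genes of the LXR and efflux group. By limma, 4 of the 29 genes were lower in KO at an unadjusted p under 0.05, namely Srebf2, Insig1, Fasn and Abcg1, against 6.83% of all named genes. None was higher at that threshold, against 4.58% of all named genes. Among the genes whose mean signal lay above the median, as it did for 28 of the 29, the background was 10.3% lower and 7.06% higher. A share of 13.8% of the module is thus not far from what brighter genes showed in general.

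Stricter calls found no gene of the module. With a change of over 2-fold at an unadjusted p under 0.01 as the call, the counts were 0 lower and 0 higher, against 0.481% and 0.540% of all named genes. At an adjusted p under 0.05 the count was 0, as it was over all named genes (0%). The adjusted p-values of the 29 genes ran between 0.401 and 0.984. All 3 KO arrays lay below all 3 control arrays for 4 genes (Insig1, Stard4, Fasn and Abcg1), against 11.0% of all named genes. They lay above them for Mvd and Hsd17b7, against 5.82% of all named genes. For 24 of the 29 genes the 95% confidence interval of the difference stayed within a 2-fold change either way.

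**Figure D1:**
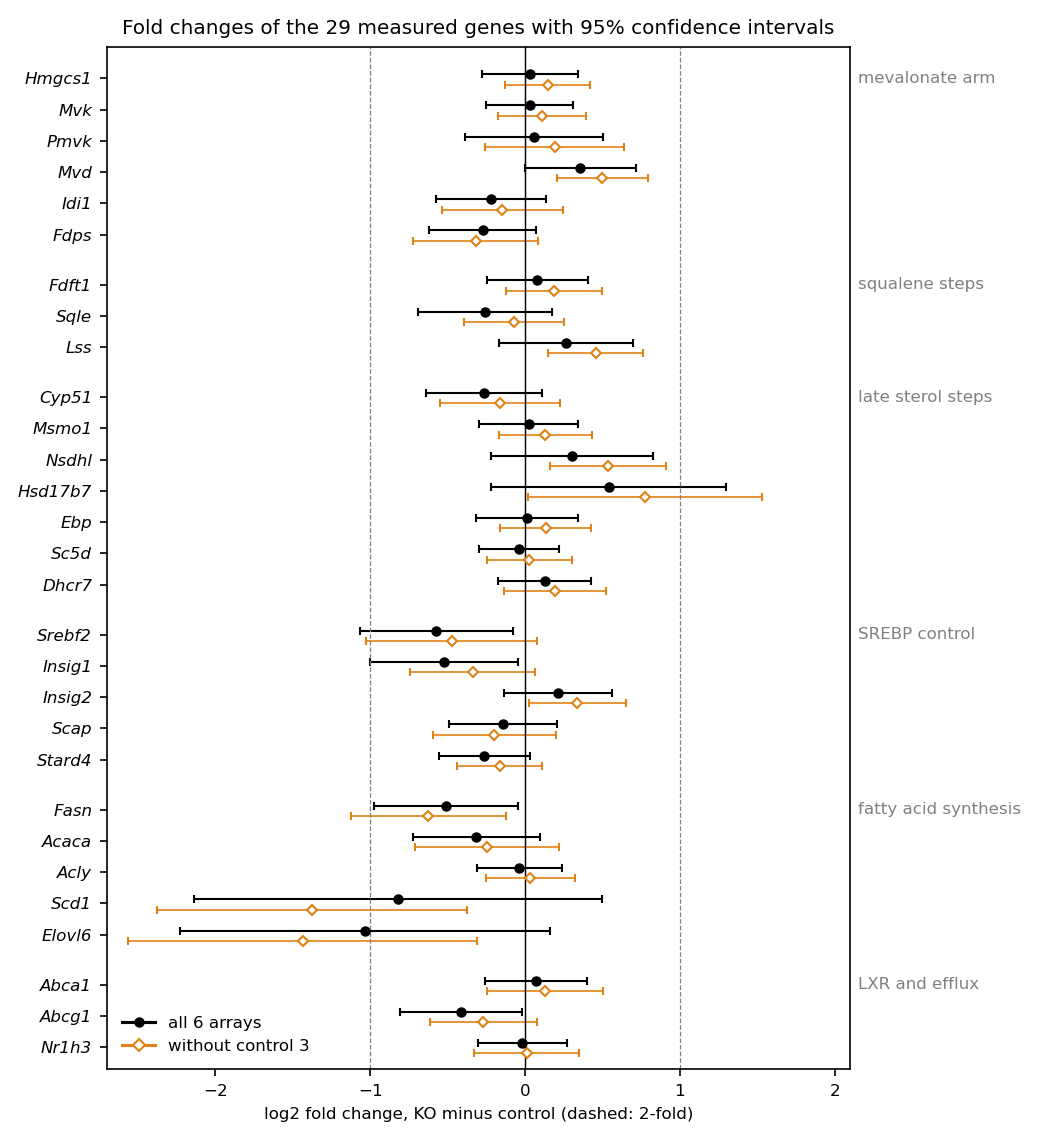
Log2 fold change of each measured gene, KO minus control, with its 95% confidence interval from limma, for all 6 arrays (filled circles) and without control 3 (open diamonds). On all arrays the sterol enzymes lie on both sides of 0, between -0.27 and 0.54, while the 5 fatty acid genes all lie below 0. Of all named genes 57.0% lie below 0, and without control 3 Acly lies at 0.035.

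The mevalonate arm makes the isoprenoid units from which sterols are built. Hmgcs1, the synthase that makes HMG-CoA, had 9.29, 9.26 and 9.25 in KO arrays, against 9.16, 9.08 and 9.46 in control arrays. The KO arrays fell inside the control range, and the difference of 0.03 ± 0.13 (SE) had a 95% confidence interval of -0.28 to 0.34. Mvk and Pmvk, the kinases that phosphorylate mevalonate in sequence, differed by 0.03 and 0.06. Idi1, the isomerase that interconverts the isoprenoid units, differed by -0.22, and Fdps, which joins them into farnesyl diphosphate, by -0.27 (adjusted p = 0.662 and 0.564). Leaving out control 2 took Idi1 to -0.35 and leaving out KO 1 took Fdps to -0.40, both then at an unadjusted p under 0.05.

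Mvd, the decarboxylase that makes isopentenyl diphosphate, was the only gene of this arm whose groups did not overlap. It had 7.33, 7.33 and 7.45 in KO arrays, against 6.93, 6.81 and 7.30 in control arrays. Every KO array lay above every control array, with the highest control only 0.03 below the lowest KO arrays. The difference was 0.36 ± 0.15 (SE), and its adjusted p of 0.462 did not pass. Without control 3 it was 0.50 ± 0.12 (SE, adjusted p = 0.092).

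The next 3 enzymes lead through squalene to lanosterol. Fdft1, squalene synthase, differed by 0.08 and Sqle, the squalene epoxidase that limits the rate of the late pathway, by -0.26 (adjusted p = 0.885 and 0.674). Without control 3, in which Sqle was highest, its difference was -0.07. Lss, the cyclase that closes the sterol rings, had 7.11, 7.01 and 7.16 in KO arrays, against 6.72, 6.55 and 7.21 in control arrays. The KO arrays lay close together and under control 3, but above the other controls. The difference of 0.27 ± 0.18 (SE) became 0.46 ± 0.13 (SE, adjusted p = 0.128) without control 3 and 0.13 without control 2.

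The late enzymes turn lanosterol into cholesterol. Nsdhl, a sterol dehydrogenase of C4 demethylation, had 9.08, 9.07 and 9.09 in KO arrays, against 8.75, 8.34 and 9.24 in control arrays. The KO values spanned 0.02 and the control values 0.90 on the log2 scale, so that the difference of 0.30 ± 0.22 (SE) lay within the control spread. Without control 3 it was 0.54 ± 0.15 (SE, adjusted p = 0.142), and without control 2 it was 0.09. Hsd17b7, the ketosteroid reductase of the same C4 steps, had 7.50, 7.46 and 7.49 in KO arrays, against 7.27, 6.15 and 7.41 in control arrays. The groups did not overlap, yet most of its difference of 0.54 ± 0.32 (SE) came from control 2, and without that array it was 0.14. Hsd17b7 was 0.77 higher in KO without control 3 (adjusted p = 0.283).

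The remaining late enzymes differed less. Cyp51, the lanosterol demethylase, differed by -0.26 ± 0.16 (SE), and by -0.41 without control 2, then at an unadjusted p under 0.05. Msmo1, the C4 methyl oxidase, differed by 0.02 and Ebp, the sterol isomerase, by 0.01. Sc5d, the lathosterol oxidase, differed by -0.04, and Dhcr7, which makes cholesterol from 7-dehydrocholesterol, by 0.13. The adjusted p-values of these 5 enzymes ran between 0.613 and 0.984, and their KO and control arrays overlapped.

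The sterol enzymes kept nearly the same order across the controls. Among the 3 controls, control 3 was highest for 15 of the 16 enzymes and control 2 lowest for 14 of the 16. For all named genes together, control 3 was the highest control in 42.8%. The share with control 2 lowest was not computed over all named genes. Control 2 was lowest for 17 of the 45 further pathway genes described below. The median deviation of the 16 enzymes from their own means was 0.07, -0.03 and 0.01 in KO arrays, against -0.06, -0.17 and 0.21 in control arrays. The KO arrays thus lay between the controls. The SD was larger in control than in KO for 14 of the 16 enzymes, against 61.8% of all named genes, with a median SD of 0.08 in KO and 0.22 in control. All 16 confidence intervals crossed 0 on all 6 arrays, and 15 of them stayed within a 2-fold change. Without control 3, 4 sterol enzymes were higher in KO at an unadjusted p under 0.05 (Mvd, Lss, Nsdhl and Hsd17b7) and Insig2 was as well, while Fasn, Scd1 and Elovl6 were lower, in all 5 higher and 3 lower of the 29. Control 3 was the highest control for these 5 genes and the lowest for these 3. Leaving it out had to move each difference in that direction, so the shift is no separate result. The background without that array was then 11.0% higher and 8.42% lower, and 4.43% of all named genes, though 0 of the 29, passed an adjusted p under 0.05.

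**Figure D2:**
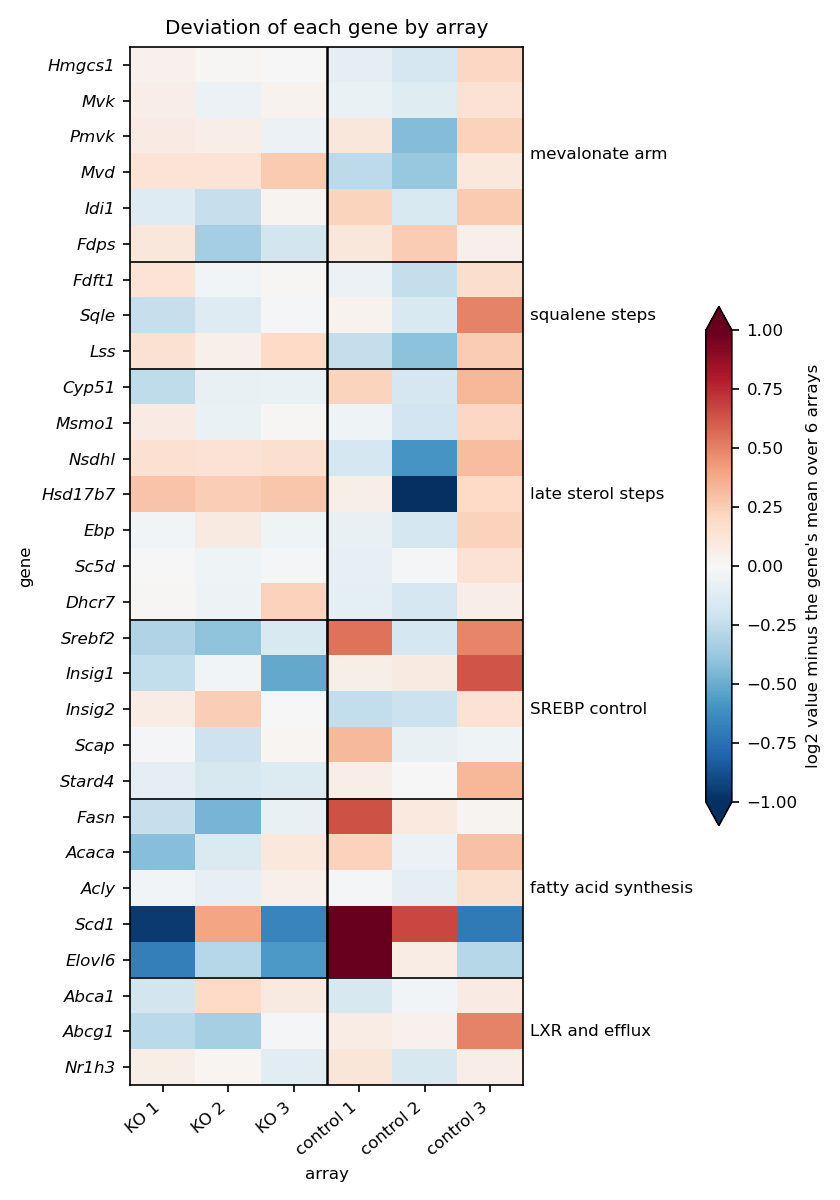
Log2 value of each measured gene in each array minus its mean over the 6 arrays, KO arrays left and control arrays right of the line, with genes grouped by role. Control 3 is red and control 2 blue for most sterol enzymes, while the KO arrays stay pale, with Hsd17b7 and Nsdhl lowest in control 2.

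Of the 5 genes that sense and control sterols, Srebf2 and Insig1 were lower in KO at an unadjusted p under 0.05. Srebf2, which encodes SREBP2, had 9.85, 9.75 and 10.00 in KO arrays, against 10.70, 9.98 and 10.64 in control arrays. Control 2 lay just below the highest KO array, so that the groups overlapped, and controls 1 and 3 lay above all KO arrays. The difference was -0.57 ± 0.21 (SE, 95% confidence interval -1.07 to -0.08, adjusted p = 0.401). It was -0.80 without control 2. Srebf2 no longer reached an unadjusted p under 0.05 without control 1 (-0.44), control 3 (-0.47), KO 1 (-0.57) or KO 2 (-0.52).

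Insig1, the sterol-dependent anchor of SCAP and itself a target of SREBP, had 8.90, 9.12 and 8.64 in KO arrays, against 9.21, 9.24 and 9.78 in control arrays. Every KO array lay below every control array, by 0.09 at the nearest. The difference was -0.52 ± 0.20 (SE, adjusted p = 0.422). The unadjusted call was lost without control 3 (-0.34), KO 1 (-0.53) or KO 3 (-0.40). Insig2, the paralog that is less dependent on SREBP, had 8.43, 8.60 and 8.36 in KO arrays, against 8.11, 8.14 and 8.50 in control arrays. The groups overlapped through control 3, and the difference of 0.21 ± 0.15 (SE) had the opposite sign to that of Insig1. Without control 3 it was 0.34 ± 0.13 (SE, adjusted p = 0.255).

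Scap, the escort of SREBP, differed by -0.14 ± 0.15 (SE, adjusted p = 0.793), with KO 2 below the control range and the other KO arrays inside it. Stard4, a soluble carrier that moves cholesterol between membranes and is a target of SREBP2, had 9.31, 9.25 and 9.27 in KO arrays, against 9.47, 9.41 and 9.74 in control arrays. The groups did not overlap, but the difference of -0.26 ± 0.12 (SE) did not pass (adjusted p = 0.506), and it was -0.16 without control 3. The KO arrays of Stard4 spanned 0.06 and the controls 0.33.

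**Figure D3:**
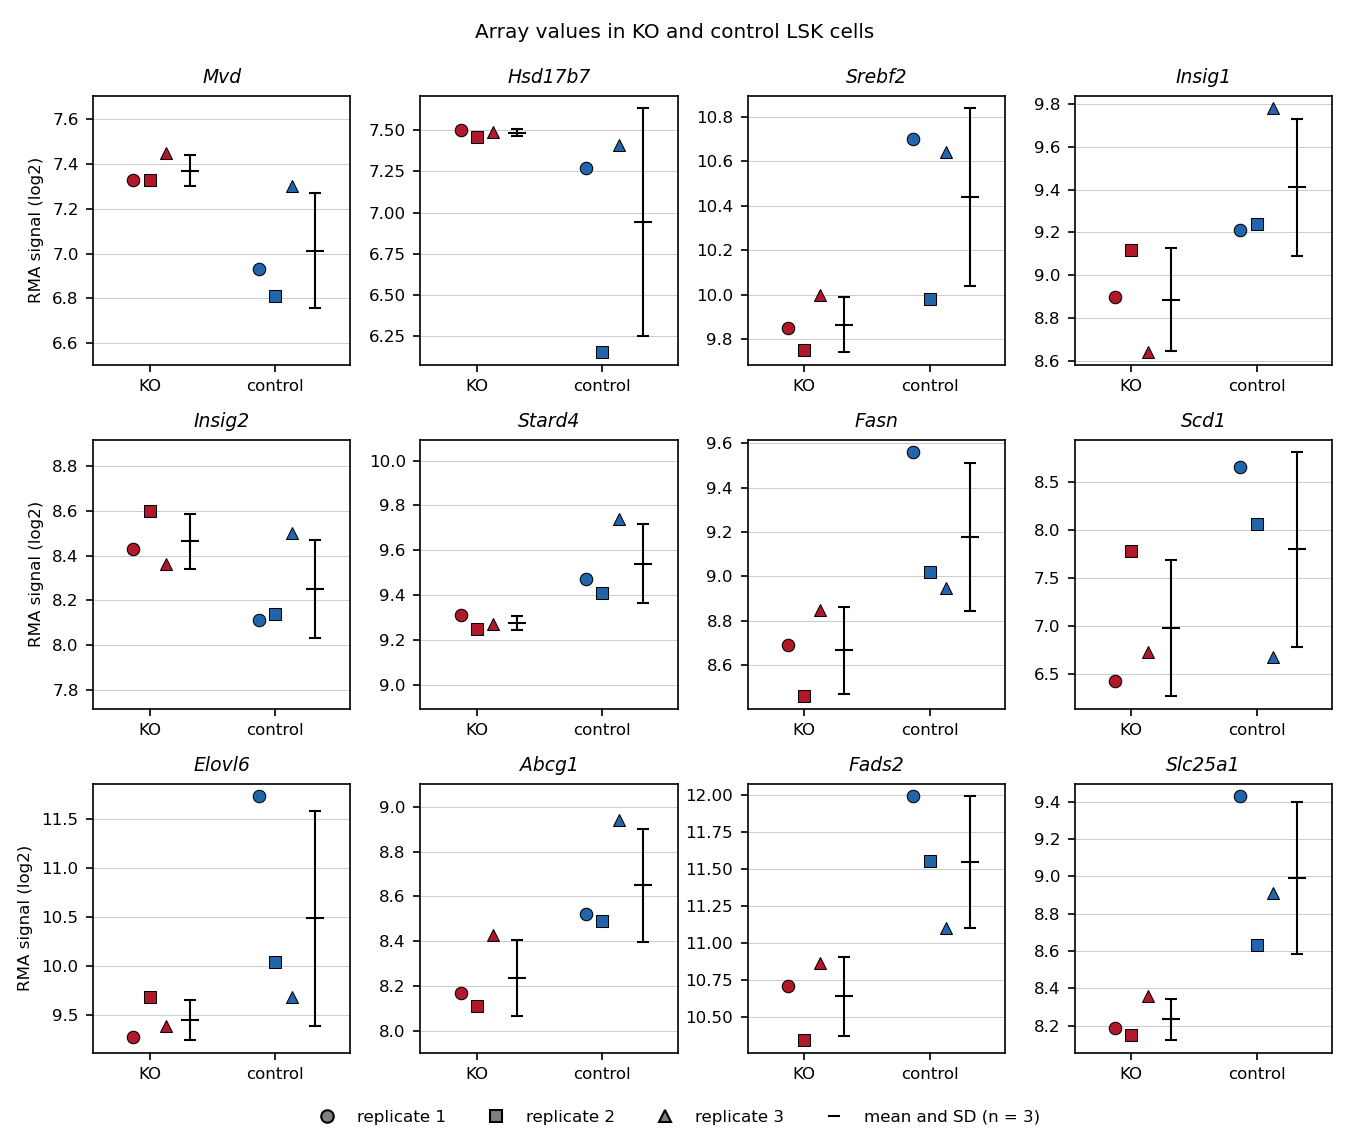
Log2 signal of 10 genes of the module and of Fads2 and Slc25a1 in each array, KO left and control right, with marker shapes for the replicates and the mean and SD of 3 arrays beside them. Insig1, Stard4, Fasn, Abcg1, Fads2 and Slc25a1 do not overlap and are lower in KO, Mvd and Hsd17b7 do not overlap and are higher, and Elovl6 and Scd1 have controls spread over 2.05 and 1.97. Each panel has its own axis, which does not start at 0.

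All 5 fatty acid genes had a fold change below 0, but only Fasn reached an unadjusted p under 0.05. Fasn, the synthase that builds palmitate, had 8.69, 8.46 and 8.85 in KO arrays, against 9.56, 9.02 and 8.95 in control arrays. Every KO array lay below every control array, with control 1 the highest. The difference was -0.51 ± 0.20 (SE, adjusted p = 0.421) and -0.62 without control 3. The unadjusted call ended without control 1 (-0.32), KO 1 (-0.52) or KO 2 (-0.41). Acaca, the carboxylase that makes malonyl-CoA and commits carbon to the pathway, differed by -0.31 ± 0.17 (SE, adjusted p = 0.575), with KO arrays between 8.86 and 9.39 and control arrays between 9.23 and 9.58. Without KO 3 it was -0.44, at an unadjusted p under 0.05. Acly, which makes cytosolic acetyl-CoA from citrate and so feeds both branches, differed by -0.04 ± 0.12 (SE), and by 0.035 without control 3.

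Elovl6 and Scd1 act after Fasn and had the largest point differences of the module, with the widest errors. Elovl6, which lengthens palmitate to stearate, had 9.28, 9.68 and 9.39 in KO arrays, against 11.73, 10.04 and 9.68 in control arrays. Control 3 was level with KO 2, and control 1 lay far above the other controls. The difference of -1.03 ± 0.50 (SE, 95% confidence interval -2.23 to 0.16, adjusted p = 0.523) shrank to -0.41 without control 1 and was -1.44 without control 3, then at an unadjusted p under 0.05 (adjusted p = 0.185). Scd1, the desaturase that makes oleate, had 6.43, 7.78 and 6.73 in KO arrays, against 8.65, 8.06 and 6.68 in control arrays. KO 2 and controls 1 and 2 were high and the other arrays low, so the groups overlapped (-0.82 ± 0.55 SE, adjusted p = 0.661). A further probe set of Scd1 had 5.53, 7.12 and 5.65 in KO arrays, against 7.41, 6.94 and 5.67 in control arrays, with the same arrays high. Without control 3 the difference of Scd1 was -1.38, likewise at an unadjusted p under 0.05 (adjusted p = 0.157), and without control 1 it was -0.39.

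On the export side, only Abcg1 reached an unadjusted p under 0.05. Abcg1, which passes cholesterol to high-density lipoprotein, had 8.17, 8.11 and 8.43 in KO arrays, against 8.52, 8.49 and 8.94 in control arrays. The groups did not overlap, by 0.06 at the nearest, and the difference was -0.41 ± 0.16 (SE, adjusted p = 0.435) with all arrays. Abcg1 did not keep its unadjusted call without control 3 (-0.27), KO 1 (-0.38) or KO 2 (-0.35). Abca1, which loads cholesterol onto apolipoprotein A-I, differed by 0.07 ± 0.14 (SE) and Nr1h3, the LXR-alpha receptor, by -0.02 ± 0.12 (SE). The difference between Abcg1 and Abca1 was not tested.

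Genes of the same pathways outside the module were read from 4 further lists, with 45 of 57 genes measured. In total 6 of the 45 were lower and 3 higher in KO at an unadjusted p under 0.05, against 6.83% lower and 4.58% higher of all named genes, and 0 passed an adjusted p under 0.05. In fatty acid metabolism, 2 of 16 genes were lower and 1 higher, with 10 fold changes below 0 and 6 above. Fads2, the delta-6 desaturase of polyunsaturated fatty acids, had 10.71, 10.34 and 10.86 in KO arrays, against 11.99, 11.55 and 11.10 in control arrays. Slc25a1, the carrier that exports citrate from mitochondria for Acly, had 8.19, 8.15 and 8.36 in KO arrays, against 9.43, 8.63 and 8.91 in control arrays. Neither gene overlapped, with differences of -0.91 ± 0.25 and -0.76 ± 0.21 (SE, adjusted p = 0.302 and 0.304). Me1, a malic enzyme that supplies NADPH, was 0.41 higher in KO, and Elovl1 and Elovl5, elongases of long and polyunsaturated chains, differed by -0.36 and -0.41 without reaching that threshold.

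In further sterol and isoprenoid metabolism, 2 of 8 genes were lower and 1 higher at an unadjusted p under 0.05, the threshold of all counts here. The oxysterol hydroxylases Cyp7b1 (-0.58 ± 0.16 SE, adjusted p = 0.313) and Cyp27a1 (-0.59 ± 0.21 SE, adjusted p = 0.398) were lower without overlap, and Ggps1, which makes the geranylgeranyl diphosphate of protein prenylation, was 0.57 higher. Acat1, the mitochondrial thiolase, and Ch25h, the cholesterol 25-hydroxylase, differed by 0.54 and 0.24 and were not past that threshold. In uptake and transport, 2 of 11 genes were lower, Lrp8, a receptor of apolipoprotein E (-0.51 ± 0.13 SE, adjusted p = 0.291), and Apoe itself (-0.72 ± 0.26 SE, adjusted p = 0.396). Lipa, the lysosomal lipase that frees cholesterol from its esters, was higher, with 10.29, 10.33 and 9.72 in KO arrays, against 8.53, 8.76 and 9.88 in control arrays. Its groups overlapped through control 3 (1.06 ± 0.37 SE, adjusted p = 0.381). The list also held Tmem97, a sterol-regulated membrane protein, and Stard3, a late endosomal carrier, which differed by -0.40 and -0.29. Of 10 further genes of SREBP and HMG-CoA reductase control, 0 were lower and 0 higher, and Mbtps1, the protease that first cleaves SREBP, and Rxrb, a partner receptor of LXR, differed by 0.37 ± 0.20 and -0.24 ± 0.12 (SE).

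Other gene lists moved between the same arrays, and their part in these results was not tested. All 19 measured mitosis genes were lower in KO at an unadjusted p under 0.05, with a median change of -1.29 on the log2 scale and median deviations of -0.44, -0.93 and -0.55 in KO arrays, against 1.45, 0.51 and 0.00 in control arrays. Control 1 was the highest control here, as it was for Fasn, Elovl6, Scd1 and Slc25a1, but Acaca and Acly were highest in control 3. Among the KO arrays, KO 2 was lowest for the mitosis list, Fasn and Slc25a1, but highest for Elovl6 and Scd1. Of 18 interferon-induced genes 12 were higher in KO at an unadjusted p under 0.05. The 18 genes had median deviations of 0.41, 0.57 and 0.64 in KO arrays, against -1.02, -1.24 and 0.44 in control arrays. Control 3 was the highest control for all 18 of them, as it was for 15 of the 16 sterol enzymes. It was also highest for 9 of 11 progenitor markers, with median deviations of 0.02, -0.09 and 0.06 in KO arrays, against -0.31, -0.18 and 0.57 in control arrays, and for 5 of 6 megakaryocyte markers, with 0.35, 0.34 and 0.17 in KO arrays, against -0.76, -0.76 and 0.68 in control arrays.

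Markers of other cell types were also unequal between arrays, and their part was not tested either. At an unadjusted p under 0.05, 6.83% of all named genes were lower in KO and 4.58% higher. Of 10 lymphoid markers 0 were lower and 0 higher at that threshold. Their median deviations ran at -0.98, 0.68 and -0.12 in KO arrays, against 0.01, 0.83 and -1.39 in control arrays. The list was split by lineage, with 5 fold changes below 0 and 5 above. Those below 0 were the B cell markers Cd79a, Cd79b, Ms4a1, Ebf1 and Pax5, with Ebf1 at -1.72. Those above were the T and NK cell markers Cd3e, Cd3d, Cd3g, Ncr1 and Nkg7, with Cd3d and Nkg7 at 1.03 and 1.16. The B cell factor Ebf1 had 8.54, 9.42 and 9.64 in KO arrays, against 13.53, 13.06 and 6.18 in control arrays. Of 14 macrophage and monocyte markers 5 were higher and 0 lower at that threshold, with 4 fold changes below 0. Of 12 granulocyte markers 4 were higher and 0 lower at it, with 5 fold changes below 0, among them Ngp at -2.15 and Camp at -1.30. Of 6 erythroid markers 1 was higher and 1 lower, and of 6 megakaryocyte markers 1 was higher and 0 lower, all at that threshold. The granulocyte list had median deviations of 0.94, 0.19 and 0.07 in KO arrays, against 0.59, -0.20 and -1.07 in control arrays. The 8 measured stromal and adipocyte markers had median deviations between -0.06 and -0.02 in KO arrays and between 0.03 and 0.08 in control arrays, and Adipoq, the defining adipocyte gene, lay between 5.81 and 5.99 in KO arrays and between 5.63 and 5.95 in control arrays.

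**Figure D4:**
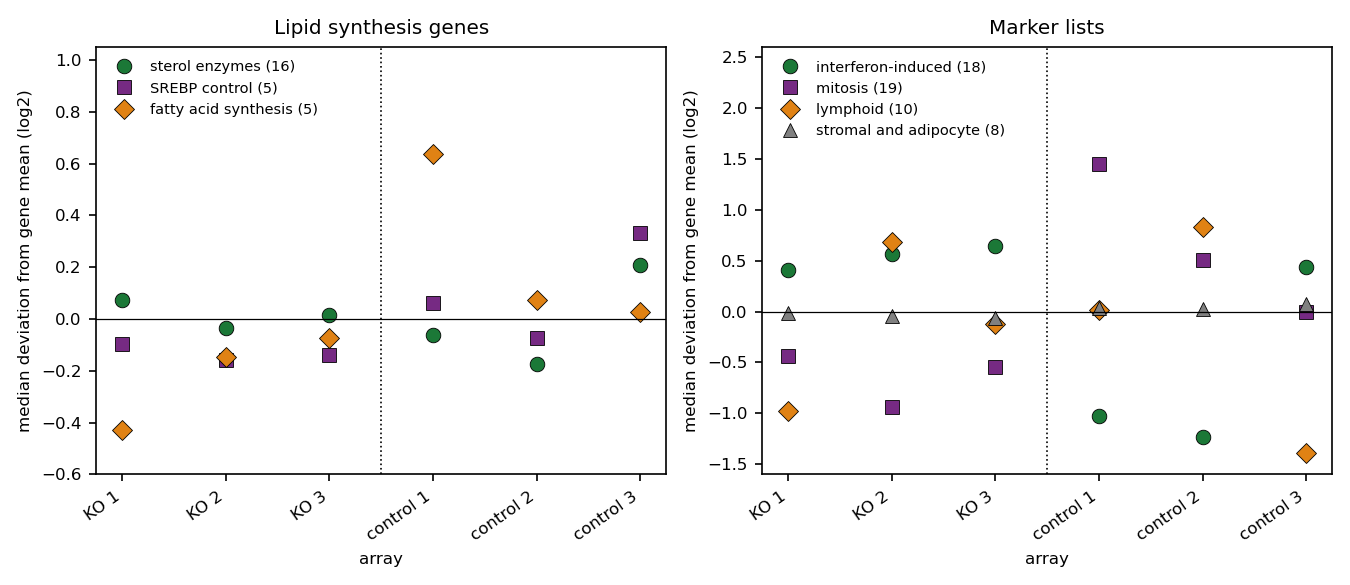
Median deviation of gene lists from their own gene means (log2) in each array, KO arrays left and control arrays right of the dotted line, for the lipid synthesis groups (left panel) and for marker lists (right panel), with the number of genes in brackets. The sterol enzymes of the KO arrays lie between control 2 at -0.17 and control 3 at 0.21, the fatty acid genes are highest in control 1 at 0.64, and the mitosis list is highest in control 1 at 1.45.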

How the data were processed

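RNA of sorted LSK cells (3 KO and 3 control arrays) was hybridised to MTA-1.0 arrays. The authors normalised the arrays with SST-RMA, and the deposited log2 values were used as they stand, with array medians between 6.02 and 6.09. The number of arrays limits the precision. Of 65956 probe sets, 30638 carried 1 symbol, 654 several names of 1 gene, 1522 several genes and 33142 none. Old names were replaced for 343, and the probe set with the highest mean stood for a gene. 0 per-sample columns were left unused. KO and control were compared with limma 3.58.1 (R 4.3.3) (lmFit and eBayes, unweighted and unblocked) over all probe sets, with Benjamini-Hochberg adjustment over all of them, tested on simulated data. Figures were drawn with matplotlib 3.10.9 (Python 3.11.15).

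The 33 genes and all lists were chosen with earlier results of these data known. All 33 are named. Array values are given where the unadjusted p was under 0.05, where groups did not overlap, for the 4 largest changes either way and for Srebf2, Insig1 and Insig2. Of each further pathway list up to 5 genes with the smallest p are named. Array values of Hmgcs1, Acaca, Fads2, Slc25a1, Lipa, Kit, Ebf1 and Adipoq were added after their values were seen. Alternatives were a filter on dim probe sets, only probe sets of 1 gene, quantile normalization, median centring, array weights, averaging the probe sets of a gene, limma's trend and robust priors, an unpaired two-tailed t-test that the methods name for measurements other than the arrays, replicate blocks, and leaving out each array.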

Additional observations from a re-analysis of the deposited data

How the results depend on the processing

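The limits are the 3 arrays per group and the spread of the controls. The 4 genes lower at an unadjusted p under 0.05 became 0 by an unpaired t-test, which the methods name for other measurements, and between 1 and 6 when an array was left out. The 0 genes higher became 1 (Mvd) with only probe sets of 1 gene, with quantile normalization, with median centring and with array weights, and between 0 and 5 when an array was left out. The replicate block by title number gave 3 lower and 1 higher. Whether the samples are paired was not settled. Deviations from the group means of arrays with the same title number correlated at 0.156, -0.171 and -0.169. The 2 pairs that share a number in the sample descriptions correlated at 0.156 and 0.162. KO 2 and control 3, which share neither number, correlated highest, at 0.281. Deviations of 3 arrays sum to 0 within a group, so these correlations cannot decide on a pairing. No source says what the description number marks. A replicate block by the description number gave 3 lower (Insig1, Scd1 and Elovl6, without Srebf2, Fasn and Abcg1). It gave 3 higher (Mvd, Lss and Nsdhl) and 1 gene (Scd1) instead of 0 lower by over 2-fold with an unadjusted p under 0.01. KO 2 and control 3 share their number with no other array. That block therefore compares only KO 1 and KO 3 with controls 1 and 2. It leaves out the highest KO value of Scd1 (7.78) and its lowest control value (6.68). No setting gave a gene of the module at an adjusted p under 0.05. All group medians moved by less than the spread between arrays.

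Of 464 recomputed fold changes 445 kept their direction and 19 small ones changed sign; the cause was not tested. No fold change passed an adjusted p under 0.05 in any setting, but 48 crossed an unadjusted p of 0.05, 25 losing and 23 gaining that call. Each of Srebf2, Insig1, Fasn and Abcg1 lost it by the unpaired t-test, without KO 1 and in further settings. Abcg1 lost it also with the filter on dim probe sets, with trend and robust priors and with array weights. Leaving out 1 array, the fold change ran between -0.043 and 0.147 for Hmgcs1, -0.025 and 0.110 for Mvk, -0.143 and 0.192 for Pmvk, -0.018 and 0.187 for Fdft1, -0.068 and 0.132 for Msmo1, -0.072 and 0.133 for Ebp, -0.087 and 0.028 for Sc5d, -0.095 and 0.035 for Acly, -0.008 and 0.182 for Abca1 and -0.102 and 0.038 for Nr1h3. Ebp was at -0.001 with quantile normalization. Under the replicate block by description number Sc5d was at 0.040 and Acly at 0.065.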
